A study of Micropterus salmoides with 24 samples.

Results

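The contigs described here are 100 trunk kidney transcripts whose levels in fish labelled as exposed to either herbicide preparation lay wholly above or wholly below those in control fish, taken by the size of the difference. A contig is a stretch of transcript assembled from sequencing reads. Among 22799 contigs with a mean of at least 1 log2 count per 1000000 (log2 CPM) in trunk kidney, a contig qualified when all 8 exposed libraries lay above all 4 controls, or all 8 lay below them. This held for 149 contigs, and the 100 with the largest difference of means were taken, out of 78435 contigs counted in the series. The members were thus chosen on their trunk kidney values, so their trunk differences from control are a description and support nothing.

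Messenger RNA came from adult male largemouth bass (Micropterus salmoides) kept for 21 days in tanks with glyphosate, with Rodeo, or with clean water as the control. Both preparations were set to 10 mg/L of glyphosate. Fish shared tanks, with 4 fish in each. Each treatment had 4 libraries of trunk kidney and 4 of head kidney, and the labels tie no library to a tank, so every p-value measures only the spread between these libraries. Library totals ran from 22259411 to 29858387 counts in trunk kidney and from 9871623 to 24374444 in head kidney.

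Glyphosate blocks an enzyme of the shikimate pathway, by which plants and many microbes make aromatic amino acids and which animals lack. Rodeo is a commercial glyphosate product sold for use on aquatic weeds. The trunk kidney of bony fish carries most of the filtering and reabsorbing nephrons, whereas the head kidney is mainly a blood-forming and immune organ with cells that secrete cortisol. The identifiers of the contigs matched no gene name in the RefSeq gene table of this species (0 matches), so neither the roles of the members nor markers of cell types could be given. Contigs are given by identifier, and for each comparison no more than 2 per direction are named.

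Some head and trunk libraries were alike although their treatment labels differed. In 65 contigs that were either high or nearly absent in both tissues, the pattern over libraries was compared for the 144 pairs of a head and a trunk library. The likeness reached 96.9% to 100% of these contigs in 8 pairs and at most 86.2% in the other 136, and the labels gave the same treatment in 0 of those 8. Head glyphosate 3, head glyphosate 4 and head Rodeo 1 were alike with trunk controls 1, 2 and 3. Head Rodeo 3 and head control 2 were alike with trunk glyphosate 1 and 4. Head control 3, head control 4 and head glyphosate 1 were alike with trunk Rodeo 1, 2 and 4. None of the 100 members was among the 65 contigs. If libraries that were alike came from the same fish, the labels of at least 1 tissue may not be those of the fish. Whether they came from the same fish, and which tissue would be affected, was not tested. Groups below follow the labels and no library was moved, so a difference given as exposed minus control may not compare exposed with unexposed fish. This limit also covers libraries alike with none of the other tissue, since having no match does not show that a label is right.

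Of the 100 members, 36 were higher and 64 lower in the exposed trunk libraries. The share of all 22799 contigs that separated in this way was 0.654% (0.241% higher and 0.412% lower). The differences of mean log2 CPM, exposed minus control, ran from 0.70 to 2.82 among the higher members, with a median of 0.99. Among the lower members they ran from -0.67 to -2.75, with a median of -1.04, and over all contigs the median was 0.00. A difference of more than 1, which is more than 2-fold, was seen in 17 higher and 35 lower members. The hundredth contig differed by -0.674 and the next one, left out, by -0.669, so the limit cuts through a continuous range.

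**Figure D1:**
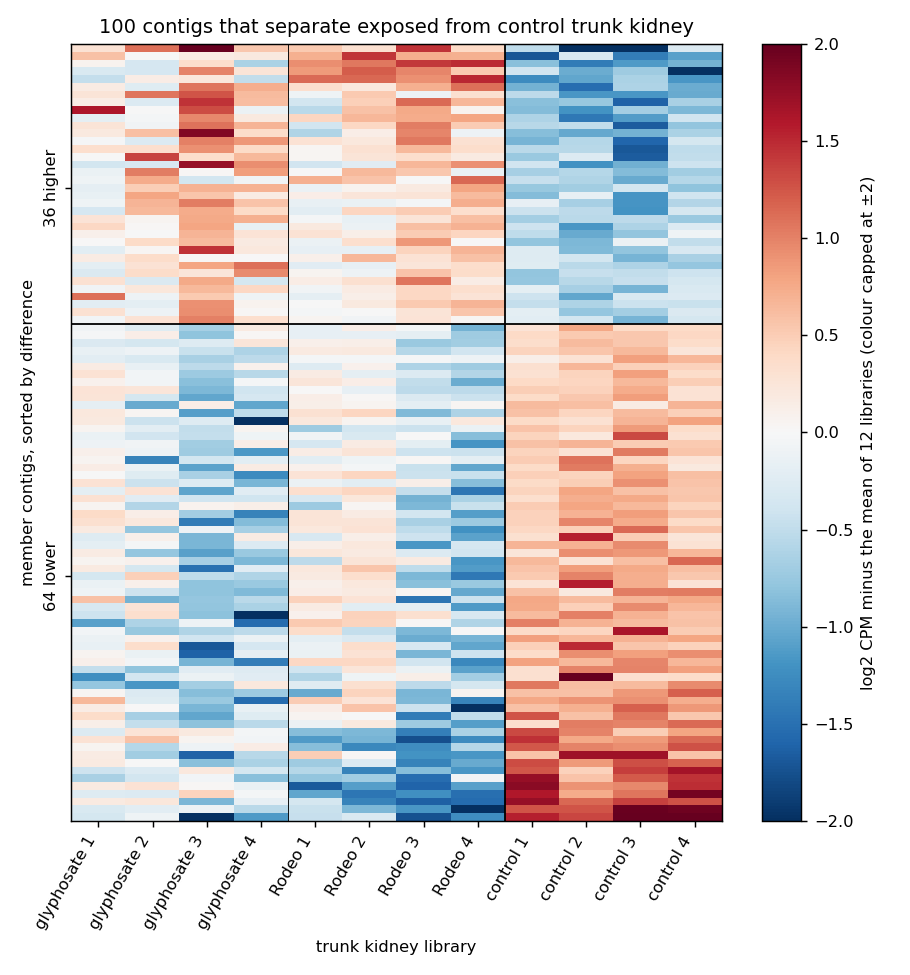
Log2 CPM of the 100 members (rows) in the 12 trunk kidney libraries (columns), each row relative to its mean over the libraries, with 36 higher members above and 64 lower members below the line. Every row has its controls on one side of all exposed libraries because this chose the rows, although in many rows the margin is too narrow to see. Glyphosate 3 and Rodeo 3 and 4 show the deepest colours among the exposed libraries, and glyphosate 1 and Rodeo 1 are among the palest.

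Among the higher members, LMB_Assem.1103.C3 had the largest difference. It stood at 3.50, 6.26, 22.1 and 4.17 CPM in the glyphosate libraries, at 4.15, 3.59, 7.89 and 3.80 CPM in the Rodeo libraries, and at 1.98, 0.132, 0.305 and 2.32 CPM in the controls. The means were 9.01 ± 8.81 CPM with glyphosate, 4.85 ± 2.04 CPM with Rodeo and 1.18 ± 1.13 CPM in controls (SD, n = 4 each). Glyphosate 3 was far above the other exposed libraries, and controls 2 and 3 were close to 0. LMB_Assem.10243.C1 stood at 49.5, 32.7, 36.9 and 37.7 CPM with glyphosate, at 54.0, 89.3, 54.8 and 54.1 CPM with Rodeo, and at 10.0, 26.5, 12.6 and 15.6 CPM in controls. All 4 Rodeo libraries lay above the glyphosate libraries here, and control 2 came closest to the exposed range.

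Among the lower members, LMB_Assem.6686.C2 stood at 2.59, 3.13, 0.762 and 1.48 CPM with glyphosate, at 2.40, 2.68, 0.943 and 1.36 CPM with Rodeo, and at 9.97, 8.49, 18.2 and 13.7 CPM in controls. The means were 1.99 ± 1.07 CPM with glyphosate, 1.85 ± 0.825 CPM with Rodeo and 12.6 ± 4.34 CPM in controls (SD, n = 4 each). The exposed groups overlapped, and the lowest control was more than 2-fold above the highest exposed library. LMB_Assem.3625.C2 stood at 2.48, 2.65, 2.83 and 2.09 CPM with glyphosate, at 2.25, 1.61, 1.33 and 0.389 CPM with Rodeo, and at 7.51, 7.46, 12.4 and 12.2 CPM in controls. Its glyphosate values were close together, whereas Rodeo 4 was well below the other libraries.

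Most members were separated by a narrow margin. The gap between the exposed library and the control nearest to each other had a median of 0.13 on the log2 scale in higher and 0.10 in lower members. It exceeded 0.5 in 2 higher and 8 lower members and was widest, at 1.42, in LMB_Assem.6686.C2. On the exposed side the library next to the gap was glyphosate 1 or Rodeo 2 in 23 members each and Rodeo 1 in 18, but Rodeo 3 in 3 and Rodeo 4 in 0. On the control side it was control 1 in 34 members, control 4 in 28, control 2 in 27 and control 3 in 11. Leaving out control 1 raised the number of separating contigs to 656, and of the 100 largest among these 29 were members. Leaving out control 4 gave 474 and 35, control 2 gave 320 and 47, glyphosate 1 gave 291 and 59, Rodeo 2 gave 265 and 55, and Rodeo 1 gave 253 and 64. Leaving out glyphosate 4 gave 229 separating contigs. A condition with fewer libraries is easier to meet, and leaving out a control does not ease it by the same amount as leaving out an exposed library. These numbers can therefore only be read against each other within the controls or within the exposed libraries.

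Against controls, the members' median difference was 1.05 with glyphosate and 0.96 with Rodeo in the 36 higher contigs, and -1.07 with glyphosate and -0.99 with Rodeo in the 64 lower ones. Both differences are set against the same 4 controls. With edgeR's quasi-likelihood test over 43072 contigs, 10 contigs passed an adjusted p of 0.05 for both products against control, which is 0.0232% of those tested, and all 10 were lower members. For Rodeo alone 8 contigs passed (0.0186%), all of them members, and for glyphosate alone 0 passed. Unadjusted, 6.99% of contigs were under 0.05 for both products, 10.5% for glyphosate and 4.64% for Rodeo. The rule used this contrast, so nothing is read from these counts. In the 4 trunk libraries alike with no head library (glyphosate 2 and 3, Rodeo 3 and control 4), the median difference was 1.08 for higher and -1.04 for lower members. The rule had set the sign of both.

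The difference between the preparations was not itself used to choose the members. The rule did place both groups on the same side of the controls in these same libraries, which limits their spread. The contigs behind the shares over all contigs, here and below, were under no such limit, so members and shares are set side by side as a description. The difference of mean log2 CPM, Rodeo minus glyphosate, had a median of -0.10 in the higher and 0.04 in the lower members, against -0.01 over all contigs. It lay within 0.5 in 78 of 100 members and in 70.2% of all contigs. The glyphosate mean was farther from control than the Rodeo mean in 23 of 36 higher and 35 of 64 lower members. In edgeR 0 of 43072 contigs passed the adjusted threshold, so 0% were called, and 12 members had an unadjusted p under 0.05, where 7.65% of all contigs did. DESeq2 called 325 contigs (0.758%), of which 6 were members. In 4 of those 6 a lower member was lower still with Rodeo, and in 2 a higher member was higher still with Rodeo.

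**Figure D2:**
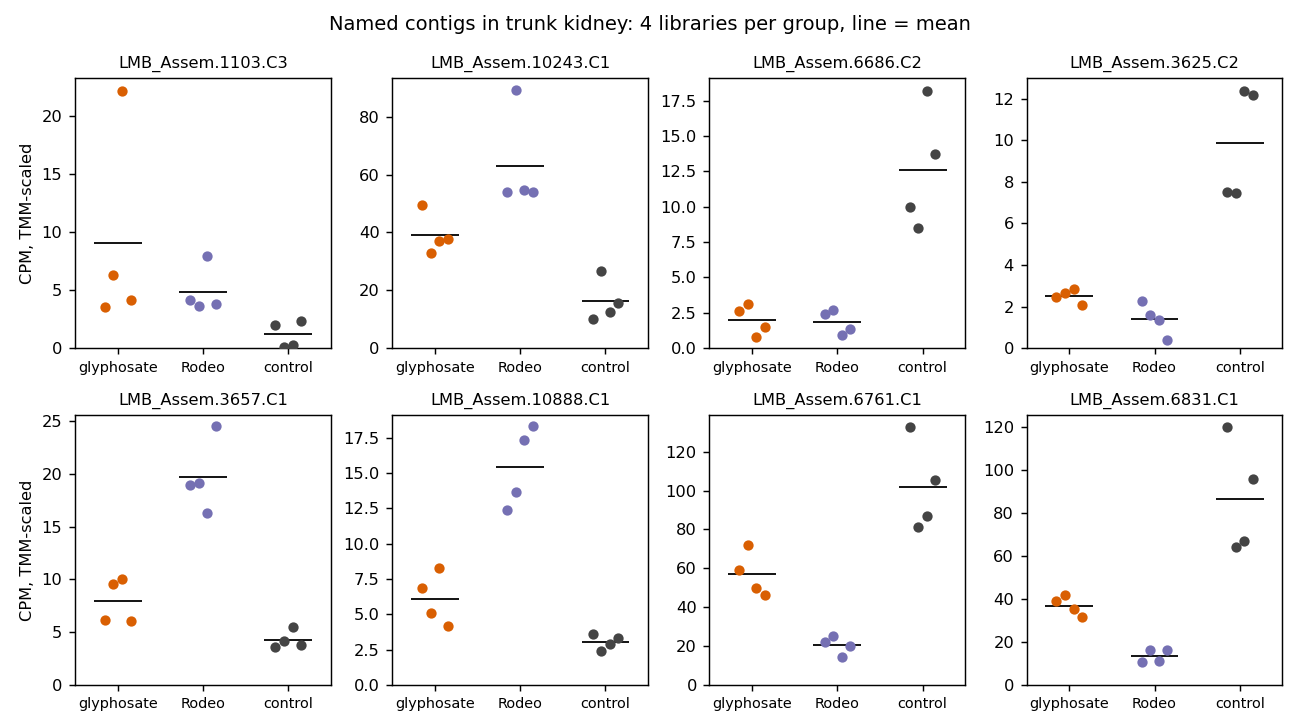
TMM-scaled CPM of 8 members in trunk kidney, with 4 libraries per group as points and the group mean as a line. In the upper row are the members with the largest differences, among them LMB_Assem.6686.C2 with all exposed libraries at or below 3.13 CPM. In the lower row are those with the smallest p between Rodeo and glyphosate, where the glyphosate libraries lie between Rodeo and control.

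The 4 Rodeo libraries lay wholly beyond the 4 glyphosate libraries in 9 members, against 3.44% of all contigs. In 5 of them Rodeo was below glyphosate in a lower member, in 3 it was above glyphosate in a higher member, and in 1 it was above glyphosate in a lower member. LMB_Assem.6761.C1 stood at 21.9, 25.1, 14.1 and 20.1 CPM with Rodeo and at 59.0, 72.0, 49.9 and 46.4 CPM with glyphosate, while the controls held 133, 81.2, 87.0 and 106 CPM. The edgeR estimate was -1.50 (SE 0.256) on the log2 scale, with an adjusted p of 0.110, where DESeq2 gave 4.16e-05. LMB_Assem.6831.C1 stood at 10.7, 15.96, 11.2 and 16.2 CPM with Rodeo, at 39.1, 41.9, 35.02 and 31.3 CPM with glyphosate and at 120, 63.9, 66.8 and 95.6 CPM in controls. With edgeR the log2 estimate was -1.47 (SE 0.259) and the adjusted p 0.121. In both contigs the 3 groups did not overlap.

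In the other direction, LMB_Assem.3657.C1 stood at 18.98, 19.2, 16.3 and 24.5 CPM with Rodeo and at 6.13, 9.58, 10.0 and 6.06 CPM with glyphosate, against 3.54, 4.13, 5.50 and 3.79 CPM in controls. The edgeR estimate was 1.30 (SE 0.270) on the log2 scale, with an adjusted p of 0.179. LMB_Assem.10888.C1 stood at 12.4, 13.6, 17.4 and 18.3 CPM with Rodeo and at 6.82, 5.10, 8.28 and 4.17 CPM with glyphosate, against 3.59, 2.41, 2.90 and 3.32 CPM in controls. With edgeR the log2 estimate was 1.32 (SE 0.283) and the adjusted p 0.196. The Rodeo libraries again stood apart from both other groups. These 4 contigs passed the adjusted threshold in DESeq2 and not in edgeR. In the trunk libraries alike with no head library, Rodeo 3 minus the mean of glyphosate 2 and 3 was -2.08 for LMB_Assem.6761.C1, -1.76 for LMB_Assem.6831.C1, 0.73 for LMB_Assem.3657.C1 and 1.41 for LMB_Assem.10888.C1.

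Same-numbered Rodeo and glyphosate trunk libraries deviated from their group means together, with r from 0.157 to 0.277 in 4 of 4 pairs. Differently numbered pairs of these groups ran from -0.245 to 0.184, so the ranges overlapped. Same-numbered pairs with control ran from -0.301 to 0.542 for glyphosate and from -0.332 to 0.134 for Rodeo. Only 1 of 4 pairs was over 0.1 in each. A fit with the replicate number as a block called 1 contig between the preparations in edgeR, and 0 members. Leaving out glyphosate 1 gave 38 calls and leaving out Rodeo 3 gave 1, of which 0 were members in either case.

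The members also varied together inside the groups. Once group means were taken off, the Pearson correlation over the 12 trunk libraries had a median of 0.31 between 2 higher members (630 pairs) and 0.34 between 2 lower members (2016 pairs). Between a higher and a lower member it was -0.28 (2304 pairs), and between contigs drawn from all others it was 0.01. With each library left out in turn the medians stayed between 0.21 and 0.35, between 0.29 and 0.39, and between -0.34 and -0.24. The members were sorted by direction in these same libraries and the other contigs were not sorted, so the 0.01 is not a matched comparison. All pairs of contigs share the same libraries, with their depth and scaling, so these values describe likeness only.

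**Figure D3:**
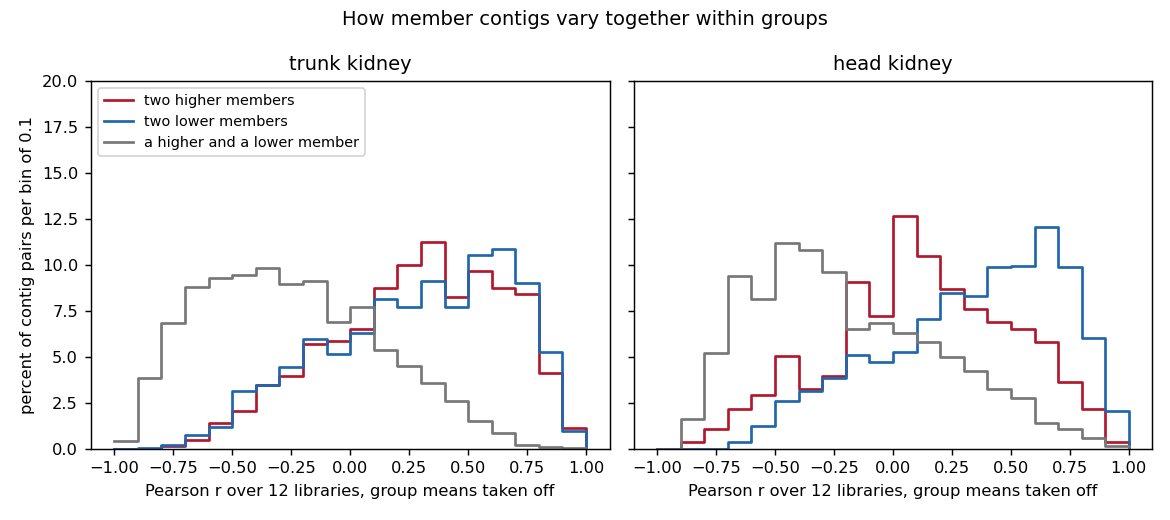
Distribution of the Pearson correlation between pairs of members, with group means taken off, as the percent of pairs per bin of 0.1 in trunk kidney (100 members) and head kidney (75 members). Pairs of the same direction lie to the right of pairs of opposite direction, with medians of 0.31 and 0.34 against -0.28 in trunk kidney. In head kidney the curve for pairs of lower members lies farthest right, at a median of 0.40.

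Averages per library took the 35 higher members with a count in head kidney, which leaves out LMB_Assem.1103.C3, and all 64 lower members. The higher members lay above their own mean over the 12 trunk libraries by 0.0836, 0.208, 0.786 and 0.330 in glyphosate 1 to 4. In Rodeo 1 to 4 they lay above it by 0.0779, 0.324, 0.577 and 0.531. In controls 1 to 4 they lay at -0.616, -0.773, -0.914 and -0.615. The lower members stood at -0.0369, -0.216, -0.646 and -0.500 with glyphosate, at -0.131, -0.0523, -0.638 and -0.817 with Rodeo, and at 0.679, 0.766, 0.869 and 0.724 in controls. The exposed libraries spread from close to the overall mean to far beyond it, whereas the controls lay close together. Glyphosate 3 and Rodeo 3 and 4 were the farthest out in both directions. The rule set all controls on one side in every member and so shapes these averages, which are a description only.

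**Figure D4:**
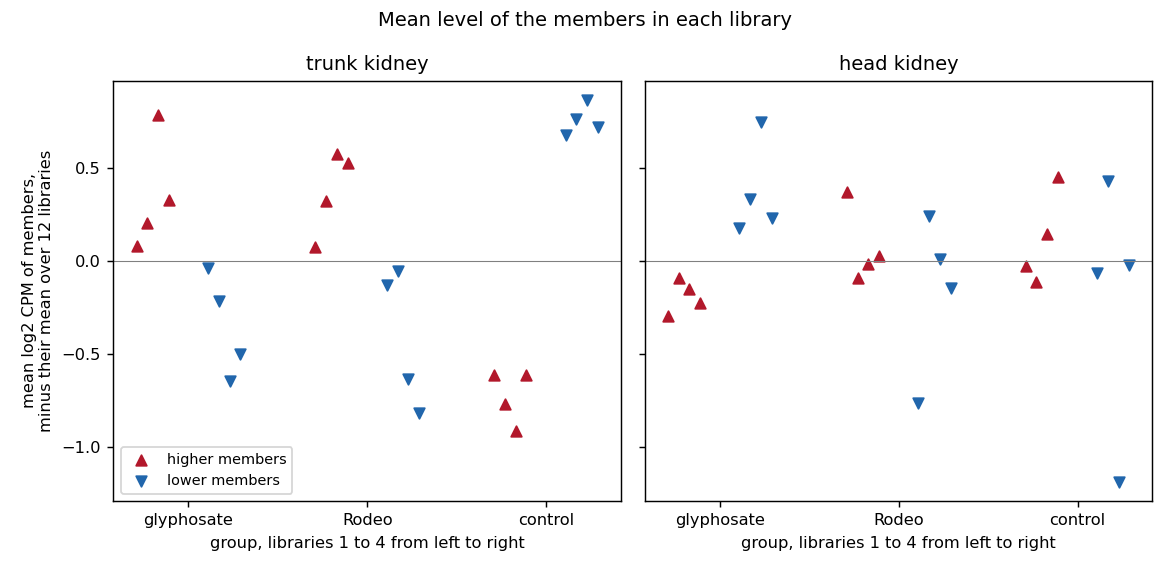
Mean log2 CPM of the higher members (upward triangles) and the lower members (downward triangles) in each library, for members with a count in head kidney. Values are relative to the members' mean over the 12 libraries of that tissue, with libraries 1 to 4 of a group from left to right. In trunk kidney the controls lie between -0.914 and -0.615 for higher members and the averages of all exposed libraries lie above 0. In head kidney the groups overlap, and head control 3 has the lowest value of the lower members, at -1.19.

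No cell type marker could be named, so the general tissue character of each library was described by contigs other than the members. A set of 2994 contigs with levels 8 times or more above those of head kidney averaged 5.14 to 5.43 log2 CPM in trunk glyphosate libraries, 5.02 to 5.29 in Rodeo libraries and 4.90 to 5.37 in controls. The opposite set, 746 contigs with levels 8 times or more above those of trunk kidney, averaged 0.380 to 1.15 with glyphosate, 1.133 to 1.199 with Rodeo and 0.797 to 1.69 in controls. The groups overlapped in both. Within groups, however, the correlation with the level of the trunk contigs had a median of 0.38 in the higher and -0.45 in the lower members, against 0.01 over all contigs. With the level of the head contigs it was -0.14 and 0.18. Within the head kidney groups the medians with the trunk contigs had the opposite signs, at -0.16 in higher and 0.28 in lower members. Over all contigs there the median was 0.08. With the head contigs the members' medians in head kidney were -0.11 and 0.10. In trunk libraries the number of contigs with a count was 46138 to 63336 with glyphosate, 55725 to 62639 with Rodeo and 57541 to 65331 in controls. The TMM factors were 0.647 to 1.12 with glyphosate, 0.921 to 1.24 with Rodeo and 0.949 to 1.33 in controls. The part of these quantities in the members' differences was not tested. In such bulk tissue, fewer cells of a type and less RNA per cell cannot be told apart.

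Most members were measured in both tissues, 99 of 100 having a count in head kidney. On a scale common to all 24 libraries, 51 of 100 members exceeded 2 times their head level in trunk kidney, where 41.9% of all 22799 contigs did. The reverse held for 9 members and 12.5% of contigs. More than 8 times higher in trunk kidney were 10 of the 36 higher and 8 of the 64 lower members, against 20.7% of all contigs. The member with the largest difference, LMB_Assem.1103.C3, had 0 counts in all 12 head libraries, which allows up to 0.0149 CPM over these libraries together.

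By kind of identifier, 61 members were LMB_Assem contigs, 24 isotigs and 15 contigs named by the word alone, against 63.0%, 21.2% and 15.7% of all contigs at that level. The kinds were uneven between directions. The lower members held 49 LMB_Assem, 9 isotig and 6 contig identifiers, and the higher members 12, 15 and 9. Identifiers of the form LMB_Assem.6686.C1 and LMB_Assem.6686.C2 share a number, whose meaning the labels do not state. Members with the number 0, such as LMB_Assem.0.CB2032, were left out of the counts that follow, which cover 51 members. The 2 pairs numbered 6686 and 3625 had both contigs among the lower members, so these 4 members may not be independent transcripts. Among contigs at a mean of at least 1 log2 CPM in trunk kidney, another 31 shared such a number with a member without being one. Their difference had the member's sign in 20 of 26 cases beside lower and in 4 of 5 beside higher members, with medians of -0.21 and 0.77, where 50.0% of all contigs lay above 0. None of these 31 separated the exposed libraries from the controls, whereas LMB_Assem.0.C7306, with the number 0, did. Those numbered 1103 were far more abundant than LMB_Assem.1103.C3, the higher member with the largest difference. Their means were 8.65 and 11.5 log2 CPM, with differences of 1.70 and 1.55, where the mean of LMB_Assem.1103.C3 was 1.55 log2 CPM.

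Head kidney had no part in the choice of members. Of the 75 members at a mean of at least 1 log2 CPM there, 0 had all 8 exposed libraries beyond all 4 controls, where 0.274% of all contigs did (0.155% above and 0.119% below). With so low a share over all contigs, a count of 0 says nothing particular about the members. Of 86 members tested with edgeR, 0 passed the adjusted threshold for both products against control, and 0 of 38656 contigs did, so 0% were called. The unadjusted p was under 0.05 in 4 members, against 4.43% of all contigs. For glyphosate alone 6 members and for Rodeo alone 7 members had an unadjusted p under 0.05, against 6.42% and 4.7%, and 0 passed adjustment in either. DESeq2 called 8 contigs for both products (0.0208%), 18 for glyphosate (0.0717%) and 50 for Rodeo (0.13%), and 0 members in each. Between Rodeo and glyphosate in head kidney 0 contigs passed in edgeR (DESeq2 was not run), and 14 of 86 members were under an unadjusted p of 0.05, against 9.15% of contigs. In 10 of these 14 a lower member was lower with Rodeo, in 2 a lower member was higher with Rodeo, and in 2 a higher member was higher with Rodeo. Relative to their mean over the head libraries, the lower members averaged -0.766, 0.241, 0.0142 and -0.144 in head Rodeo 1 to 4. In head glyphosate 1 to 4 they averaged 0.181, 0.333, 0.753 and 0.231. Libraries were not left out in turn for this comparison. The lower members also varied together, so the 10 are not independent contigs.

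By sign alone and by the labels, the members leaned away from their trunk direction in head kidney. In the lower members this lean was not seen without head control 3, nor with Rodeo alone. The 35 higher members with a count in head kidney had a median difference, exposed minus control, of -0.19, and 27 of them were below 0. The 64 lower members had a median of 0.28, and 54 were above 0. Of these 99 members, 75 reached a mean of at least 1 log2 CPM in head kidney, so the signs of the others rest on low counts. Over all contigs the median was 0.05, and 57.7% had opposite signs in the 2 tissues. Head control 3 was the shallowest library, with 9871623 counts and 36607 contigs counted. Without it the lower members had a median of -0.01, with 31 of 64 above 0, and the higher members a median of -0.20, with 22 of 35 below 0. The number of members with opposite signs was then 53 of 99, against 81 with all libraries, and 47.6% of all contigs had opposite signs. In the 4 head libraries alike with no trunk library (glyphosate 2, Rodeo 2 and 4, control 1) it was 61 of 99.

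**Figure D5:**
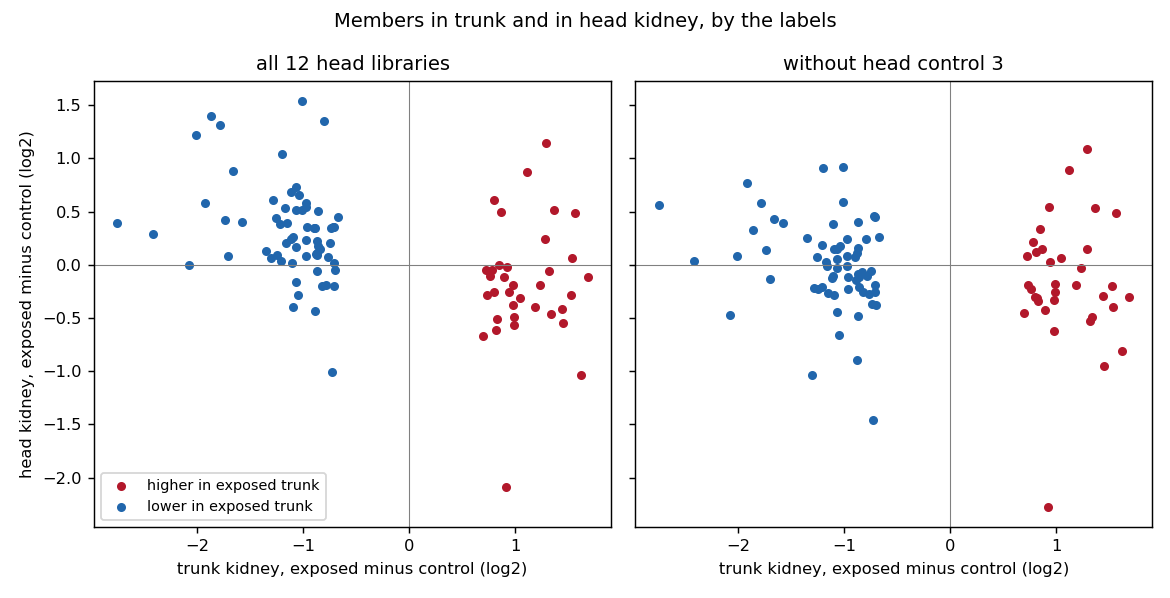
Difference of mean log2 CPM, exposed minus control, in trunk kidney (horizontal axis) and head kidney (vertical axis) for the 99 members with a count in head kidney, with all head libraries on the left and without head control 3 on the right. On the left 54 of 64 lower members lie above 0 in head kidney, and on the right 31 of 64. The gap in the middle of the horizontal axis comes from the choice of members.

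For each preparation alone, set against the same 4 head controls, the lower members had a median difference of 0.56 with glyphosate and -0.03 with Rodeo. Of these 64 members, 56 lay above 0 with glyphosate and 30 with Rodeo. The higher members had a median of -0.40 with glyphosate and -0.14 with Rodeo. Of these 35 members, 27 lay below 0 with glyphosate and 22 with Rodeo. The medians over all contigs were 0.05 and 0.07, and 54.1% and 58.9% of all contigs lay above 0. Head control 3 belongs to both comparisons, and its part in each was not tested.

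The members with the smallest p in head kidney show how wide the spread was. LMB_Assem.10888.C1, higher in exposed trunk kidney, stood at 5.22, 6.56, 1.89 and 3.22 CPM in head glyphosate libraries, at 5.16, 5.29, 1.36 and 3.91 CPM with Rodeo, and at 4.83, 4.94, 11.97 and 11.6 CPM in controls. The edgeR estimate was -1.03 (SE 0.425) on the log2 scale, with an adjusted p of 0.975. Controls 3 and 4 were high, and controls 1 and 2 lay within the exposed range. In the head libraries alike with no trunk library its difference was 0.17. The contig isotig119165, also higher in exposed trunk kidney, stood at 9.05, 13.6, 6.71 and 13.5 CPM with glyphosate, at 17.2, 13.7, 14.5 and 11.5 CPM with Rodeo, and at 14.4, 13.5, 30.3 and 23.3 CPM in controls. With edgeR the log2 estimate was -0.72 (SE 0.274) and the adjusted p 0.975. Again only controls 3 and 4 lay above all exposed libraries.

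LMB_Assem.4709.C1, lower in exposed trunk kidney, stood at 42.8, 47.7, 53.4 and 59.4 CPM in head glyphosate libraries, at 39.7, 53.1, 39.2 and 52.4 CPM with Rodeo, and at 41.1, 41.3, 23.7 and 38.1 CPM in controls. The edgeR estimate was 0.43 (SE 0.194) on the log2 scale, with an adjusted p of 0.975. LMB_Assem.3625.C1, the partner of LMB_Assem.3625.C2, stood at 2.09, 3.76, 9.69 and 16.2 CPM with glyphosate, at 5.29, 15.3, 5.93 and 4.69 CPM with Rodeo, and at 4.47, 4.31, 0.452 and 4.01 CPM in controls. With edgeR the log2 estimate was 1.23 (SE 0.599) and the adjusted p 0.975. Control 3 was the lowest library for both. Controls 1 and 2 lay within the exposed range in both contigs, and control 4 in LMB_Assem.3625.C1 only.

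The members varied together in head kidney as well. With group means taken off, the median correlation over the 12 head libraries was 0.40 between 2 lower members (51 contigs). It was 0.13 between 2 higher members (24 contigs) and -0.26 between a higher and a lower member. Among other contigs, not sorted by direction, it was 0.00. Without head control 3 the members' medians were 0.28, 0.08 and -0.17. Their counts of signs in head kidney are therefore not counts of independent contigs.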

How the data were processed

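Per the labels' protocols, poly(A) RNA libraries were made with a directional kit. The deposited values are raw read counts per contig, and a contig missing from a library's list was taken as 0. The tools named per the submitters' processing notes are cutadapt, SAMtools, edgeR and DESeq. Aligner, counter, strand setting and contig assembly were not given in the sources used here, so contigs of near-identical sequence may share reads. No molecular identifiers are mentioned, so limits for counts of 0 (3 counts) cover counting error only.

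CPM and log2 CPM (prior count 2) were TMM-scaled over all contigs within a tissue, and over all 24 libraries for comparisons of tissues. Tests used edgeR 4.0.16 in R 4.3.3 (TMM, filterByExpr, quasi-likelihood F test, 3 groups of a tissue fitted together, Benjamini-Hochberg adjustment over all contigs tested, threshold 0.05), with DESeq2 1.42.0 as an alternative. The SE is the log2 fold change over the square root of F. The edgeR test and the separation rule were run on simulated counts with known changes. For the rule these changes were larger than the difference of any member and had a low spread. DESeq2 and the correlations were not tested in this way. Libraries of one group differed far beyond sampling noise (chi-square per degree of freedom 31.4 to 157.6). Contigs named were the 2 higher and 2 lower members with the largest trunk difference, and those with the smallest p between Rodeo and glyphosate in trunk kidney and for both products against control in head kidney. High or absent contigs reached 1.5 log2 CPM in at least 1 library of each tissue and had a gap over 3 (log2) with at least 2 libraries on each side, and pairs of libraries alike for at least 90% were called alike. Gene lists and cell type markers could not be used for lack of names. The members, lists and rules were chosen with earlier results of these data known.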

Additional observations from a re-analysis of the deposited data

Results flagged for a closer look

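For the 11 contigs named, each group of 4 libraries was searched for a library far from the other 3 (63 groups with unequal values, Dixon's criterion), and 8 groups held one. Chance flags about 1 in 20 groups if values are normally distributed, which was not tested for these CPM values. The contigs and libraries are shared between groups, so the 8 cannot be weighed against that rate. Trunk glyphosate 3 stood at 22.1 CPM for LMB_Assem.1103.C3, where the next library had 6.26, and trunk Rodeo 3 at 7.89 CPM, where the next had 4.15. For LMB_Assem.10243.C1 trunk Rodeo 2 stood at 89.3 CPM (next 54.8) and head glyphosate 2 at 75.8 CPM (next 40.0). LMB_Assem.3657.C1 stood at 11.2 CPM in head Rodeo 4 (next 7.54). LMB_Assem.3625.C2 stood at 0.362 CPM in head control 1 (next 0.0599). LMB_Assem.3625.C1 stood at 15.3 CPM in head Rodeo 2 (next 5.93) and, at the low end, at 0.452 CPM in head control 3 (next 4.01).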

How the results depend on the processing

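Of the summary results, 145 recomputed values stayed within 1.5 times or within the spread, and 32 moved. Most of those that stayed were counts of 0 that remained 0, so the 145 is no measure of stability. The limit of 1.5 times is also wide. It passed 67 of 100 members kept at a mean of at least 2 log2 CPM. It also passed 61 against 81 members of opposite sign in the head libraries alike with no trunk library. The trunk medians were recomputed in libraries that the rule had used. With one library left out, separating contigs ranged from 163 to 656, members among the 100 largest from 29 to 90, and members of opposite sign in head kidney from 53 to 83. Calls ranged from 0 to 38 for trunk Rodeo against glyphosate, from 0 to 1 for head glyphosate and from 0 to 2 for head Rodeo against control. DESeq2 called 325 contigs between the trunk preparations, 6 of them members, and 8, 18 and 50 in head kidney for both products, glyphosate and Rodeo against control. Without a filter edgeR called 3, and 13, 75 and 27. With the replicate block edgeR called 1 in each of these 4 comparisons, 0 of them members. Same-numbered libraries had r over 0.1 in at most 1 of 4 pairs, except trunk Rodeo with trunk glyphosate. With only the compared groups in the fit, head Rodeo against control gave 3 calls. LMB_Assem.10888.C1 turned to 0.17 in the head libraries alike with no trunk library. The other contigs named for both products in head kidney kept their direction there. So did those named for Rodeo against glyphosate in trunk kidney, in the trunk libraries alike with no head library. Nothing was tested in these libraries, and having no match does not show that their labels are right. Under the alternatives with a test, the contigs named for these comparisons kept their direction, and their side of the threshold except for the 4 trunk contigs that passed in DESeq2. The contigs named for the largest trunk differences were not recomputed singly. The cause of these shifts was not tested. The alternatives for the signs in head kidney, and those for the named contigs that kept only libraries alike with none of the other tissue, were chosen after seeing the data.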

Other observations

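Over the 8 pairs of a head and a trunk library that were alike in the 65 contigs, the correlation of a contig's head value with its trunk value had a median of 0.10 in 24 higher members and -0.13 in 51 lower members. Over 17581 contigs at that level in both tissues the median was 0.01, and in the 65 contigs that defined the pairs it was 0.96. The correlation was above 0 in 15 of 24 higher and 19 of 51 lower members. These pairs were found from the data, so the values are a description.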
